A study of Mus musculus with 6 samples.

Results

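Genes described here were selected on their own fold change: they are protein-coding genes, other than those called Zfp, that were at least 4-fold lower in LPS-treated than in control macrophages. A gene of the deposited count table was a member if it was annotated as protein-coding, if it had at least 50 counts in each PBS library, and if its mean level in the LPS libraries was at most 0.25 of its mean level in the PBS libraries. Genes whose symbols start with Zfp, Zbtb or Hist, and Txnip, were left out by name. The table listed 55335 genes, 10230 of them met the count minimum and the name clause, and 70 met the fold limit as well. The number rests on the scaling: with library size alone in place of the TMM factors 170 genes met the same rule, all 70 among them. Because the members were chosen by the difference between LPS and PBS, that difference is described below for each of them and carries no test.

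The libraries were made from total RNA of BMDMs, macrophages grown from the bone marrow of C57BL/6 mice in medium conditioned by L929 cells, which supply the growth factor that macrophages need. The library names mark every library as WT, wild type, and all cells had this genotype, strain and culture. The 3 PBS libraries came from cells given PBS as the control and the 3 LPS libraries from cells given LPS, a bacterial cell wall component, and both were collected after 1 h. The labels number the libraries of each group as batches 1 to 3 and do not say whether the cells came from separate animals, so the spread between libraries may be technical.

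LPS binds TLR4 at the macrophage surface and sets off NF-kB and MAP kinase signalling, which switches on cytokine and early regulator genes within minutes. Other transcripts decline over the same time. The level of an RNA reflects both its synthesis and its decay, and transcripts of many regulators, zinc finger proteins among them, are known to be short-lived. In bulk RNA, fewer cells of one type and less RNA per cell cannot be told apart.

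Library totals ranged from 37787611 to 41516330 counts. Levels are given as CPM, counts relative to the library total multiplied by its TMM factor from edgeR. These factors ran from 1.148 to 1.153 in PBS and from 0.864 to 0.872 in LPS libraries, so raw counts of a PBS and an LPS library are not on the same scale. Over the 15687 genes with enough counts for a test, the median log2 fold change was -0.01. A gene is said to have fallen or risen where edgeR's quasi-likelihood test gave a Benjamini-Hochberg adjusted p under 0.05 and the log2 fold change was beyond 1 in size. By this criterion 1624 genes fell (10.4%) and 1653 rose (10.5%), and these 2 percentages are the background for the counts below. They cover every biotype and level, so they are no like set for lists of protein-coding genes. Among protein-coding genes that met the count minimum and name clause but not the fold limit, the share that fell varied with exon number. It ran from 2.18% with 11 or more exons to 14.6% with 2. Scaled by library size alone, 2962 genes fell and 1213 rose. Of 20 early genes of the LPS response listed as a check of the treatment, 18 rose and 0 fell. The 3 with the highest log2 fold changes were the prostaglandin synthase gene Ptgs2 at 12.11, the cytokine gene Il1b at 11.77 and the chemokine gene Cxcl1 at 11.22. The 12 macrophage markers summed to between 33900 and 35320 CPM in PBS and between 40420 and 40790 CPM in LPS libraries. Summed markers of neutrophils, T and NK cells, B cells, dendritic cells, fibroblasts and erythroid or mast cells lay between 4.82 CPM and 118 CPM in every library. Of these lists 4 of 6 dendritic genes rose, among them Xcr1 (3.92), Flt3 (1.63) and Cd209a (1.28), and their sum was 4.82 to 6.24 CPM in PBS and at most 11.6 CPM in LPS. Of 3 tested genes on the erythroid or mast cell list Pf4, a platelet factor gene, rose (1.01), from 614, 624 and 572 counts to 860, 856 and 908. The list summed to 13.1 to 14.8 CPM in PBS and 26.8 to 27.6 CPM in LPS, and 2 of the 8 genes listed were at 0 in all libraries. Most of that sum was Pf4, so it is no measure of erythroid or mast cells. Cd14 (3.19) was the 1 macrophage marker that rose, and no tested neutrophil, T or NK cell, B cell or fibroblast marker passed the criteria either way. The part of other cell types in the members' levels was not tested.

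The members started from low levels. Their median level in PBS was 5.36 CPM, with a range from 1.2 to 128 CPM, against 27.1 CPM for the other 10160 eligible genes. Per kilobase of exon the medians were 1.76 and 5.96 CPM. In LPS the median member stood at 0.940 CPM. Together the 70 genes held 0.0833% to 0.0849% of all counts in PBS libraries and 0.0116% to 0.0120% in LPS libraries, and their summed CPM in LPS was 0.185 of that in PBS. In every one of the 70 genes all 3 LPS libraries lay below all 3 PBS libraries, which the rule nearly forces, and the rule itself took 0.684% of the eligible genes. In 43 of them even the highest LPS library was at most 0.25 of the lowest PBS library.

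The median log2 fold change of the members was -2.44, between -4.45 and -2.01. It was below -3 in 7 genes, between -3 and -2.5 in 21, and above -2.5 in 42, so most members lay close to the limit that chose them. The standard error of a member's log2 fold change had a median of 0.15, with values from 0.04 to 0.33. Each standard error in the text and figures is the size of the log2 fold change divided by the square root of the test's F statistic. It is not a separate estimate, and at low counts it can fall short of counting error. For Zkscan4, the exact interval given below is wider than its standard error implies. Libraries of a group differed less in PBS (median coefficient of variation 6.43%) than in LPS (16.7%), where the counts were lower.

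**Figure D1:**
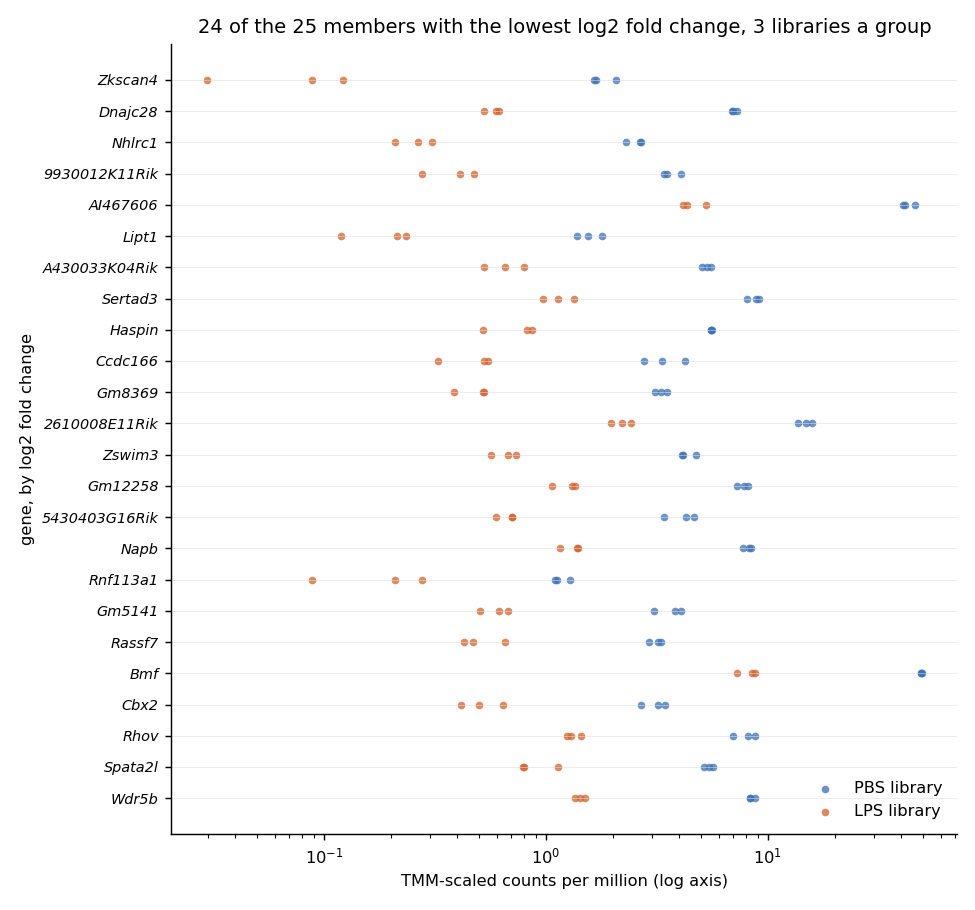
Level of 24 of the 25 members with the lowest log2 fold change in each of the 6 libraries, as TMM-scaled CPM on a log axis, with 1 row per gene and 1 point per library. In each row the LPS points lie to the left of the PBS points without overlap, and the widest gap is that of Zkscan4, from 1.80 CPM in PBS to 0.0801 CPM in LPS.

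The nearest members inside the limit were Cdca7, Eid2b, Mrnip, Lipt2 and Ier5l, whose LPS to PBS ratios ran from 0.249 to 0.238. The nearest genes outside it were Phf23 at 0.252, Harbi1, Rbak, Hyls1 and Lysmd4 at 0.254. Phf23, a PHD finger protein gene, went from 2655, 2527 and 2565 counts in PBS to 492, 454 and 463 in LPS, so the first gene left out was measured more deeply than any of the 5 just inside.

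C2H2 zinc finger proteins, which bind DNA through repeated small domains that each hold a zinc ion, made up the largest set of members with a known kind of protein. The name clause had already removed 62 genes under the same fold limit, 60 of them called Zfp, 1 Zbtb and Txnip. Even so, 12 of the 70 members (17.1%) encoded at least 3 C2H2 patterns, against 115 of the 10160 other eligible genes (1.13%). These 12 genes carry clone-like, Gm, Zkscan, Zscan or Zik symbols that the clause does not catch. Their median log2 fold change was -2.52, and their proteins held between 6 and 19 C2H2 patterns in the translated GENCODE coding sequence.

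Zkscan4, which encodes a zinc finger protein with KRAB and SCAN domains, had the lowest ratio of all members. Its counts were 99, 76 and 76 in PBS and 1, 4 and 3 in LPS, and the log2 fold change was -4.45 (standard error 0.33). The ratio of its scaled counts summed over libraries was 0.0442, with an exact 95% interval from 0.0189 to 0.0884 that covers counting error only. The gene lies on chromosome 13 at 21478907 to 21485507 of GRCm38 and its protein has 7 C2H2 patterns. A430033K04Rik, with 8 patterns, had 254, 228 and 256 counts in PBS and 22, 26 and 18 in LPS (log2 fold change -3.01, standard error 0.15). 2610008E11Rik, with 14 patterns, went from 754, 618 and 684 counts to 66, 79 and 75 (log2 fold change -2.75, standard error 0.10). The distance between the groups in these 3 genes follows from how they were chosen.

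Gm12258 and 2810021J22Rik are neighbours on chromosome 11, with 5259 bp between them, and Zfp39, excluded by its name, is the gene beside them. Gm12258 had 389, 353 and 334 counts in PBS and 44, 35 and 46 in LPS. 2810021J22Rik had 317, 293 and 258 counts in PBS and 39, 35 and 50 in LPS. The log2 fold changes of these adjacent genes were -2.63 (standard error 0.12) and -2.33 (standard error 0.14), and Zfp39 was at -2.71 (standard error 0.13). Other members with many fingers were 5430403G16Rik, with 19 patterns and a log2 fold change of -2.62, and Gm5141, with 15 patterns and -2.61. Such genes arise by local duplication and have near-identical relatives, so reads that match several of them could have been divided or dropped in the counting, and their single values are less certain than those of other members.

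The other named members of this set are Zkscan14, Zscan20, Zscan29 and Zik1. Zscan29 had the highest level per kilobase of exon of the zinc finger members, with 1891, 1800 and 1816 counts in PBS and 293, 296 and 294 in LPS, and the libraries within each group were close together. Zkscan14 was at 11.3 CPM in PBS and 2.09 CPM in LPS, Zscan20 at 8.23 and 1.64 CPM, and Zik1, named for its binding to hnRNP K, at 3.02 and 0.656 CPM. Gm3604 completed the set with a log2 fold change of -2.14.

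Zinc finger genes that were not members fell in part. Of 306 C2H2 genes named Zfp or Zbtb with the same count minimum, 61 were under the fold limit and 170 fell (55.6%) and 8 rose, with a median log2 fold change of -1.14. Of the 115 eligible C2H2 genes with other names that were no members, 32 fell (27.8%) and 17 rose (14.8%), with a median of -0.28. Another list, drawn by symbol and overlapping this set in part, held families such as Zkscan, Zscan, Klf, Egr, Prdm and CCCH zinc finger genes. It had 110 tested genes that were no members, and 16 of them fell (14.5%) and 20 rose (18.2%). Its lowest log2 fold changes were those of Rslcan18 (-2.23), a KRAB zinc finger gene, Sall2 (-1.90) and Zscan22 (-1.90). Its highest were those of Prdm8 (6.28), Klf5 (4.92) and Zc3h12c (4.23), which encode a PR domain factor, a Kruppel-like factor and a CCCH zinc finger protein. KRAB zinc finger proteins silence repeats through the corepressor Trim28. Among 21 tested genes of that machinery, 1 fell, the SETDB1 partner gene Atf7ip (-1.09), and 0 rose.

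A set of 9 members encoded proteins of chromatin and of the transcription apparatus, with a median log2 fold change of -2.49. Sertad3, a transcriptional coregulator of the SERTA family, had the lowest, with 385, 399 and 422 counts in PBS and 45, 37 and 33 in LPS (log2 fold change -2.92, standard error 0.13). Its relative Sertad1, which is the neighbouring gene 9546 bp away on the same strand, rose from 1378, 1237 and 1197 counts to 2325, 2308 and 2298 (log2 fold change 1.33, edgeR quasi-likelihood test, Benjamini-Hochberg adjusted p = 1.27e-14). The fall of Sertad3 follows from the rule, and Sertad1, which is no member, went in the opposite direction.

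Cbx2 and Cbx8 encode chromodomain subunits of Polycomb repressive complex 1, which read a repressive histone mark and compact chromatin. They face each other on chromosome 11 with 5034 bp between their ends, Cbx2 at 119022962 to 119031270 on the plus strand and Cbx8 at 119036305 to 119040969 on the minus strand. Cbx2 had 153, 121 and 159 counts in PBS and 14, 21 and 17 in LPS. Cbx8 had 181, 214 and 190 counts in PBS and 29, 26 and 22 in LPS. The fitted log2 fold changes were -2.58 (standard error 0.19) for Cbx2 and -2.45 (standard error 0.16) for Cbx8. Their relatives Cbx7 and Cbx6, subunits of the same complex, did not pass the criteria, with log2 fold changes of -0.59 and -0.52.

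Wdr5b, a single-exon relative of the histone methyltransferase subunit gene Wdr5, was at 8.47 ± 0.227 CPM in PBS and 1.43 ± 0.0748 CPM in LPS (SD, n = 3; log2 fold change -2.57). Wdr5 itself was at -0.36. Msl3l2, a relative of the dosage compensation subunit gene Msl3, was at -2.49, while Msl3 was at -0.14. Reads that fit both copies of either pair make these values uncertain. Med18, a subunit of the Mediator complex that links activators to RNA polymerase II, had 257, 278 and 276 counts in PBS and 38, 32 and 31 in LPS (log2 fold change -2.53, standard error 0.14). Other Mediator genes went both ways. Of its 29 other tested subunits 2 fell, Med22 (-1.32) and Med26 (-1.07), and 4 rose, among them Med21 (1.90) and Med29 (1.31), with a median of -0.09. The remaining members here were the bHLH factor gene Tfap4 (-2.28), the SET domain methyltransferase gene Setmar (-2.08) and Eid2b (-2.02), whose protein belongs to a family of p300 inhibitors. Eid2, next to Eid2b, also fell, from 62, 71 and 66 counts to 23, 16 and 22 (log2 fold change -1.23).

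**Figure D2:**
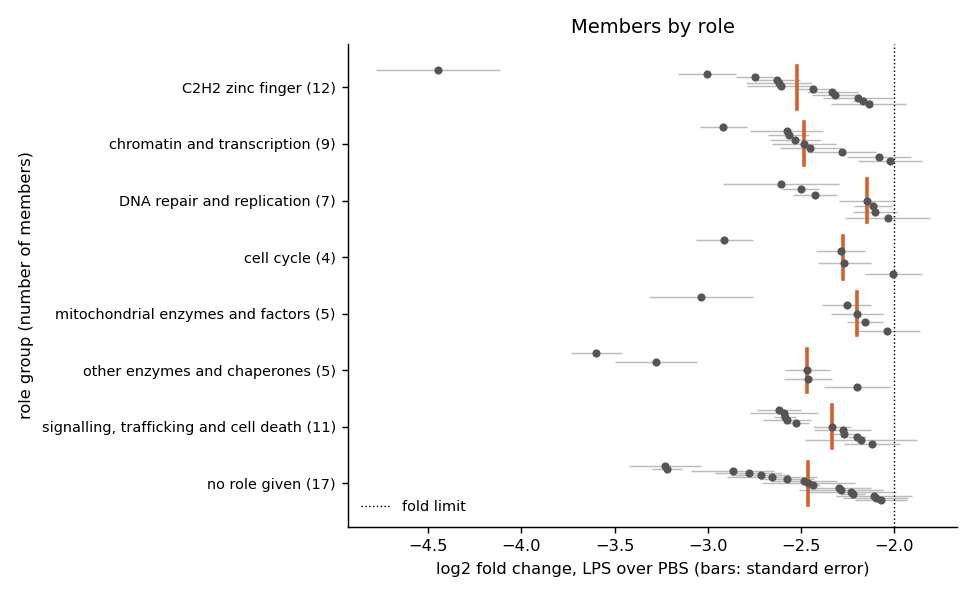
Log2 fold change of LPS over PBS for each of the 70 members (points, with standard errors as bars) in 8 groups by role, with the group median as an orange line and the fold limit as a dotted line. Group medians lie between -2.52 and -2.15, and the points furthest to the left are Zkscan4 at -4.45 and Dnajc28 at -3.60.

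DNA repair and replication genes numbered 7, with a median log2 fold change of -2.15. Rnf113a1, which encodes a RING finger protein of the spliceosome with a part in the repair of alkylated DNA, had the lowest CPM of the members in PBS, with 61, 51 and 51 counts against 7, 9 and 3 in LPS. The summed ratio was 0.162, with an exact 95% interval from 0.0948 to 0.261, so counting error alone reaches past the limit of the rule. The same held for other members, among them Mrnip (upper end 0.340), Bicdl1 (0.321) and Lipt2 (0.303). For others, such as Etaa1 (0.204) and Palb2 (0.217), the upper end stayed under the limit. Etaa1, an activator of the checkpoint kinase ATR, went from 544, 507 and 546 counts to 62, 66 and 75, which was 5.68-fold lower by mean CPM. Palb2, which bridges BRCA1 and BRCA2 in homologous recombination, went from 475, 443 and 397 counts to 52, 67 and 57 (log2 fold change -2.43, standard error 0.12). Slx1b, the nuclease partner of Slx4, was at -2.10. Of 7 other tested genes of these recombination complexes, 0 fell and 0 rose by edgeR's test, and their log2 fold changes ran from -0.48 for Brca1 to 0.62 for Eme1.

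Gins3 encodes 1 of the 4 subunits of GINS, part of the replicative helicase. It had 252, 221 and 249 counts in PBS and 39, 47 and 31 in LPS (log2 fold change -2.15, standard error 0.14). The other 3 subunit genes were between -0.73 for Gins1 and -0.21 for Gins4, and none passed the criteria. Mbd4, a glycosylase that removes thymine or uracil from mismatches at CpG sites, was at 11.7 CPM in PBS and 2.70 CPM in LPS. Mrnip, whose product binds the MRN complex at DNA breaks, went from 83, 76 and 70 counts to 11, 17 and 12. Its exons share 580 bp with those of Sqstm1 on the other strand. Sqstm1 had 19982 or more counts in each library and rose (log2 fold change 1.88). How reads of the shared stretch were counted is not known, so the value of Mrnip is uncertain.

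Of 4 cell cycle genes, the mitotic histone kinase gene Haspin had the lowest log2 fold change, -2.91 (standard error 0.15), with 264, 251 and 260 counts in PBS and 29, 17 and 28 in LPS. Haspin is a single-exon gene that lies inside an intron of the integrin gene Itgae, on the other strand. Itgae had few reads, at 12, 10 and 8 counts in PBS and 16, 28 and 19 in LPS, and it rose (log2 fold change 1.53). Fbxo5, an inhibitor of the anaphase-promoting complex, was at -2.29, and the cyclin gene Ccnj at -2.27. Cdca7, whose product works with the chromatin remodeller HELLS, was the member nearest to the limit, with 329, 315 and 355 counts in PBS and 80, 59 and 40 in LPS. Its LPS libraries spread more widely, relative to their mean, than its PBS libraries.

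Mitochondrial proteins were encoded by 5 members. Lipt1 and Lipt2 act in the attachment of lipoate, the cofactor of pyruvate dehydrogenase and related enzymes. Lipt1 had 66, 70 and 83 counts in PBS and 4, 7 and 8 in LPS (log2 fold change -3.04, standard error 0.28). Lipt2 had 164, 195 and 172 counts in PBS and 29, 22 and 42 in LPS (log2 fold change -2.04, standard error 0.18). Lias, which makes the lipoyl group in the same pathway, was at -0.83 and did not pass the criterion on size. Pars2, the mitochondrial prolyl-tRNA synthetase gene, was at -2.26 (standard error 0.13). Of 16 other tested synthetases of mitochondria, 2 fell, Mars2 (-1.29) and Hars2 (-1.02), and 0 rose, with a median of -0.21. The translation initiation factor gene Mtif3 was at -2.16 and the nuclease gene Exog at -2.20.

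Other enzymes and chaperones included Dnajc28 and Nhlrc1, which came next after Zkscan4 by log2 fold change. Dnajc28, a J-domain protein gene on chromosome 16 at 91614254 to 91619026, was at 7.04 ± 0.199 CPM in PBS and 0.579 ± 0.0444 CPM in LPS (SD, n = 3), which is 12.2-fold lower. Its counts were 346, 311 and 322 against 20, 20 and 18, and the LPS libraries agreed closely. Nhlrc1, the single-exon gene of the ubiquitin ligase malin that is mutated in Lafora disease, had 109, 121 and 123 counts in PBS and 7, 10 and 9 in LPS (log2 fold change -3.28, standard error 0.22). Trmt12, a tRNA-modifying enzyme gene, and Gdpgp1, a GDP-glucose phosphorylase gene, were at -2.47 and -2.46. Trim6, a ubiquitin ligase gene, was at -2.20. Trim6, Fbxo5 and Rnf113a1 are the 3 members on a list of ubiquitin ligase and adaptor genes drawn by symbol. Of the 252 other tested genes on it, 24 fell (9.52%) and 18 rose (7.14%), and 66 fell when libraries were scaled by size alone. The list is protein-coding only, unlike the background, so 9.52% beside 10.4% does not make its share of falls usual. Among the other eligible coding genes, 14.6% of the 377 with 2 exons fell. Of the 2392 with 7 to 10 exons 4.06% fell, and of the 4551 with 11 or more 2.18%. The list was not matched to these genes by level or exon number. Klhl42 (-1.87), Kbtbd6 (-1.74) and Fbxl8 (-1.72) had the lowest values of those that fell, and Rnf125 (3.85), Spsb1 (3.51) and Klhl25 (2.87) the highest of those that rose.

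In signalling, trafficking and cell death, 11 members had a median log2 fold change of -2.33. Bmf, a BH3-only protein gene that promotes apoptosis by binding BCL2 family members, was among the members with the most counts, with 2352, 2223 and 2255 counts in PBS and 244, 278 and 297 in LPS. This was 49.1 ± 0.265 CPM against 8.17 ± 0.787 CPM (SD, n = 3). The 5 other tested BH3-only genes did not move as 1 group. Bbc3 (-1.64) and Bid (-1.33) fell, Bad was at -0.27, and Pmaip1 (1.71) and Bcl2l11 (2.79) rose. Cnr2, the cannabinoid receptor gene of immune cells, had 2913, 2620 and 2646 counts in PBS and 413, 420 and 450 in LPS (log2 fold change -2.20, standard error 0.05). Of 52 other G protein-coupled receptor genes of macrophages, a list that does not hold Cnr2, 3 fell (5.77%) and 15 rose (28.8%). Those that fell were S1pr2 (-1.90), Gpr146 (-1.86) and Mrgpre (-1.86), and the highest of those that rose were Gpr84 (5.98), Adora2b (5.33) and Adora2a (5.01).

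Napb encodes beta-SNAP, which with NSF takes apart SNARE complexes after membrane fusion. It went from 399, 348 and 380 counts to 47, 38 and 47 (log2 fold change -2.62, standard error 0.12). Its closest partners did not pass the criteria, with Napg at -0.10, Napa at 0.23 and Nsf at 0.25. Rab3a, a GTPase of regulated secretion, had 253, 248 and 207 counts in PBS and 36, 40 and 29 in LPS, while its relative Rab3d was at 0.02. Of 207 other tested regulators and members of small GTPase families, 9 fell (4.35%), among them Rab42 (-2.95), Rab40c (-1.84) and Rab39 (-1.60), and 20 rose (9.66%), among them Rgs9 (6.04), Rab11fip1 (4.31) and Rasgef1b (4.06), a balance that turned to 26 falls and 16 rises when libraries were scaled by size alone. Rhov, a small GTPase gene, was at 7.93 CPM in PBS and 1.33 CPM in LPS. Rassf7, a Ras association domain gene, was at 3.14 and 0.518 CPM.

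The kinase gene Pdik1l had very even libraries, at 26.1 ± 0.576 CPM in PBS and 4.53 ± 0.0277 CPM in LPS (SD, n = 3). Angptl4, a secreted inhibitor of lipoprotein lipase, had 530, 477 and 471 counts in PBS and 64, 70 and 77 in LPS (log2 fold change -2.33, standard error 0.10). Arrdc2, an alpha-arrestin gene related to the excluded Txnip, had 926, 899 and 840 counts in PBS and 122, 142 and 135 in LPS (log2 fold change -2.27, standard error 0.08). Mtcp1, which encodes a coactivator of the kinase AKT, was at -2.12. Its exons share 570 bp with Cmc4 on the same strand, and Cmc4 was at -0.88. Bicdl1, a dynein adaptor gene, had the largest standard error of these genes, 0.30, with 57, 84 and 55 counts in PBS and 14, 11 and 6 in LPS.

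For 17 members no role is given here. Tmem140, a membrane protein gene, had the most counts of all members, with 6190, 5852 and 5758 counts in PBS and 784, 759 and 828 in LPS, or 128 ± 2.88 and 23.6 ± 0.591 CPM (SD, n = 3). AI467606 had 2199, 1876 and 1878 counts in PBS and 139, 141 and 180 in LPS (log2 fold change -3.22, standard error 0.08). Per kilobase of exon these genes led the members, at 22.1 CPM in PBS for AI467606 and 21.9 CPM for Tmem140, ahead of Cnr2 at 14.8, Bmf at 9.35, Gm10130 at 9.11, Ccdc117 at 8.79, Sertad3 at 6.53, Arrdc2 at 5.93, Zscan29 at 5.53 and Rhov at 4.66 CPM. The place of Gm10130 rests on an annotation of only 303 exonic bp, with 161, 106 and 118 counts in PBS. AI467606 thus combined a low ratio with counts above 100 in every library. 9930012K11Rik went from 168, 184 and 158 counts to 16, 9 and 14 (log2 fold change -3.23, standard error 0.19). Ccdc166 (-2.87), Gm8369 (-2.78), Zswim3 (-2.72) and Spata2l (-2.58) followed. Tigd5, which derives from a domesticated transposase, was at -2.30, and 8 others lay between -2.49 for 4930518I15Rik and -2.07 for Ier5l.

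Lists of FOXO and p53 targets and of further transcription factors held no member, the last because its symbols do not take in the bHLH member Tfap4. Among 32 tested FOXO factors and targets 3 fell, Sesn1 (-1.54), Pik3ip1 (-1.47) and Tsc22d3 (-1.44), and 9 rose, led by Kdm6b (6.62), Trib1 (4.13) and Irs2 (3.8). Among 29 p53 targets 2 fell, Bbc3 and Sesn1, and 7 rose, led by Cdkn1a (3.99), Btg2 (2.85) and Mdm2 (2.59). Among 113 homeobox, bHLH and other genes that this list drew by symbol 7 fell (6.19%), led by Lyl1 (-1.80), Mxd3 (-1.73) and Nr2c2ap (-1.33), and 23 rose (20.4%), led by Id3 (7.47) and Maff (7.21).

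Gene structure was not used by the rule, and it differed between members and the other eligible genes. In the transcript with the longest coding sequence, members had a median of 4 exons (quartiles 2 and 6), against 10 (6 and 15) for the other 10160 genes. Among members 24 of 70 (34.3%) had 1 or 2 exons, against 576 of 10160 (5.67%). Single-exon genes were 10 of 70 (14.3%) against 1.96%, and they were Haspin, Nhlrc1, Rnf113a1, Wdr5b, Trmt12, Tigd5, Ier5l, Eid2b, 4930518I15Rik and AI429214. More than 10 exons were found in 3 members (4.29%), Palb2, Napb and Gm42688, against 44.8% of the other genes. The median genomic span was 8.24 kb against 25 kb. The mature transcripts differed less, with median coding lengths of 1148 and 1380 bases and median 3′ UTR lengths of 1044 and 952 bases. The GC content of the transcripts was 51.1% and 50.2%.

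Among the other eligible genes, members excluded, a small number of exons went with change in both directions. The share that fell was 11.6% of single-exon genes, 14.6% with 2 exons, 10.2% with 4, 4.06% with 7 to 10 and 2.18% with 11 or more. The share that rose was 12.6%, 16.2%, 7.89%, 6.98% and 5.01% in the same classes. Level moved with exon number as well, from a median of 10.0 CPM in PBS for single-exon genes to 36.3 CPM for those with 11 or more exons. Among the 1330 other genes whose PBS level lay between the quartiles of the members (3.14 to 8.41 CPM), 8.72% had 1 or 2 exons, against 12 of the 34 members in that range (35.3%). In this range 20.7% of the other genes with 1 or 2 exons fell, and 4.04% of those with more than 10 exons. This comparison at like level was added after the values were known.

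**Figure D3:**
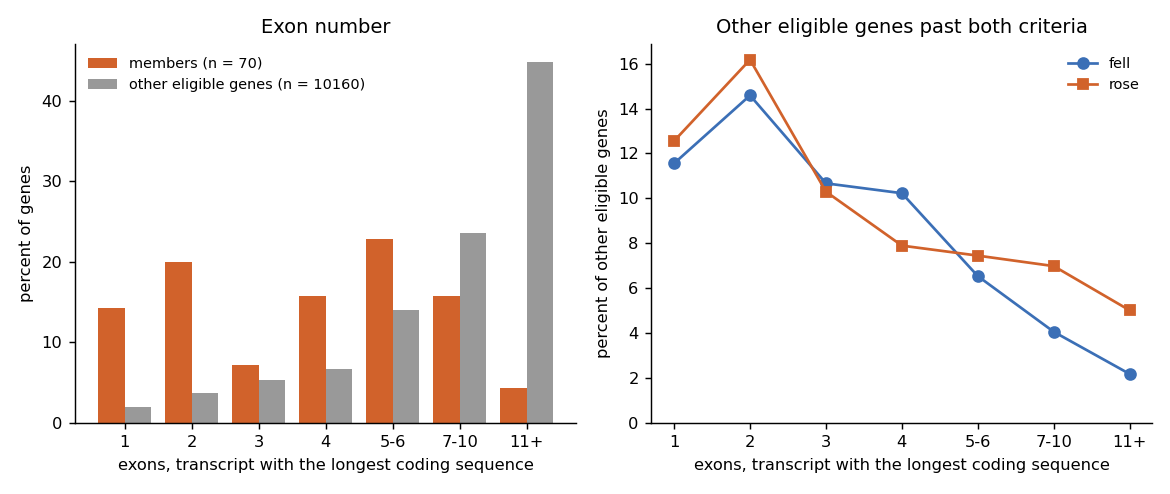
Left, percent of the 70 members (orange) and of the 10160 other eligible genes (grey) by number of exons. Right, percent of the other eligible genes in each class that fell (blue circles) or rose (orange squares) past both criteria. Members with 1 or 2 exons are 34.3% of the set against 5.67%, and both curves decline from 2 exons to 11 or more.

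AU-rich elements, short 3′ UTR motifs through which many cytokine transcripts are destabilised, were counted as well. The pentamer ATTTA was absent from the 3′ UTR of 26 of 70 members (37.1%) and of 34.6% of the other genes, counting genes with no annotated 3′ UTR as lacking it. The nonamer TTATTTATT was present in 3 members (4.29%) and 6.94% of the other genes. In 3′ UTRs of at least 100 bases the median density of ATTTA was 0.954 per kilobase in members and 1.35 in the others.

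The members lay on 17 chromosomes, 10 of them each on chromosomes 7 and 11 and 9 on chromosome 2. The genes next to them were tested as a measure that the rule did not use. Of 136 tested nearest genes that were no members, 21 fell (15.4%) and 4 rose (2.94%), against 10.4% and 10.5% of all tested genes. The count of falls was split by the kind of neighbour. Of 12 neighbours with C2H2 patterns 8 fell, and of the 124 other neighbours 13 fell (10.5%) and 4 rose (3.23%). The background of 10.4% keeps its zinc finger genes and covers every biotype, so it is no like set for these 124. The nearness of 10.5% to it therefore does not show that these neighbours fell at a usual rate. Some nearest genes lay far off, such as Clcn4, 3186378 bp from Zik1.

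The neighbours with the lowest log2 fold changes were Spata33 beside Spata2l, Zfp39 beside 2810021J22Rik, Zfp937 (-2.69) and Zfp442 (-2.54) around Gm10130, and Zfp707 beside Ccdc166. Spata33 went from 25, 20 and 20 counts to 1, 2 and 1 (log2 fold change -3.45, standard error 0.49), few counts in either group. Zfp707 went from 201, 224 and 181 counts to 25, 23 and 24 (log2 fold change -2.60, standard error 0.16). Zswim1, 556 bp from Zswim3 on the same strand, fell from 244, 254 and 272 counts to 33, 60 and 56 (log2 fold change -1.90, standard error 0.16). Cstad beside Ier5l (-1.95) and Nkapl beside Zkscan4 (-1.92) fell as well, and Nkapl had only 19, 24 and 21 counts in PBS and 6, 3 and 3 in LPS. The neighbours that rose by more than Sertad1 were Gm2449 (4.86), a noncoding gene 421932 bp from Exog, Tgif2 (2.77), a homeobox gene 1046 bp from 4930518I15Rik, and Dlc1 (2.56), a GTPase-activating protein gene near AI429214.

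Genes that overlap members were counted apart, because reads may be shared where the strand was not used in counting. Of 18 such genes 6 fell (33.3%) and 2 rose. Ccdc142, which shares 2288 exonic bp with Gm42688 on the same strand, had 37, 30 and 37 counts in PBS and 4, 0 and 1 in LPS, and Gm42688 had 99, 138 and 116 against 22, 12 and 18. Their levels cannot be separated. Tmem140 shares 2168 exonic bp with Cyren on the other strand. Cyren had 336, 377 and 379 counts in PBS and 167, 171 and 161 in LPS (log2 fold change -0.66), many fewer than Tmem140 in every library. Of 11 genes with exons opposite a member's exons 2 fell and 1 rose. The values of Mtif3 (1505 bp opposite Gtf3a, which was at -0.53) and Spata2l (417 bp opposite Cdk10, at -0.55) carry the same uncertainty. So do those of Lipt1 (262 bp opposite Mitd1, which fell by 1.07 on the log2 scale) and Mrnip (580 bp opposite Sqstm1, which rose).

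Many mammalian genes are transcribed in opposite directions from starts a short distance apart, in a common stretch of open DNA. For 12 members another tested gene started within 1000 bp on the other strand. In 10 of these pairs the partner was protein-coding, and none of the 10 partners fell or rose past both criteria by edgeR's test, nor by DESeq2 or limma voom, although 7 had an adjusted p under 0.05 in edgeR's test (7 also at an unadjusted p under 0.05) and missed only the criterion on size. Their log2 fold changes lay between -0.51 and 0.26. Over all tested genes 10.4% fell and 10.5% rose, so 10 partners are few for a comparison. The partner's log2 fold change exceeded the member's by 1.66 to 2.79, with a median of 2.14. The rule placed every member at -2.01 or lower, so a difference near this size is forced for any partner with little change.

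Zswim3, a zinc finger SWIM domain gene, went from 196, 215 and 192 counts to 19, 24 and 23, while Acot8, a peroxisomal thioesterase gene that starts 216 bp away, had 571, 566 and 541 counts in PBS and 281, 286 and 301 in LPS (log2 fold change -0.48, standard error 0.07). Ndufa1, a subunit of respiratory complex I whose start is 82 bp from that of Rnf113a1, was at 0.18 (719, 861 and 799 counts against 638, 664 and 640). Cib1, a calcium-binding protein gene 52 bp from Gdpgp1, was at 0.06. Ift122, a gene of intraflagellar transport 99 bp from Mbd4, was at 0.26. In each of these pairs the member was more than 4-fold lower in LPS and the partner did not pass the criterion on size.

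The other coding partners were Dctn5 (-0.38), a dynactin subunit gene 56 bp from Palb2, Eef1d (0.08), an elongation factor gene 179 bp from Tigd5, Brcc3 (-0.26), a deubiquitinase gene 40 bp from Mtcp1, and N4bp3 (-0.44), 112 bp from D930048N14Rik. Tubgcp4 (-0.51) and Bola2 (-0.08) start inside Zscan29 and Slx1b, so that their exons overlap those of the member by 57 and 360 bp. The noncoding partner Etaa1os, 95 bp from Etaa1, fell with it, from 35, 30 and 27 counts to 14, 8 and 8 (log2 fold change -1.14, standard error 0.31), and without LPS replicate 3 it was at -0.99, short of the criterion on size.

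**Figure D4:**
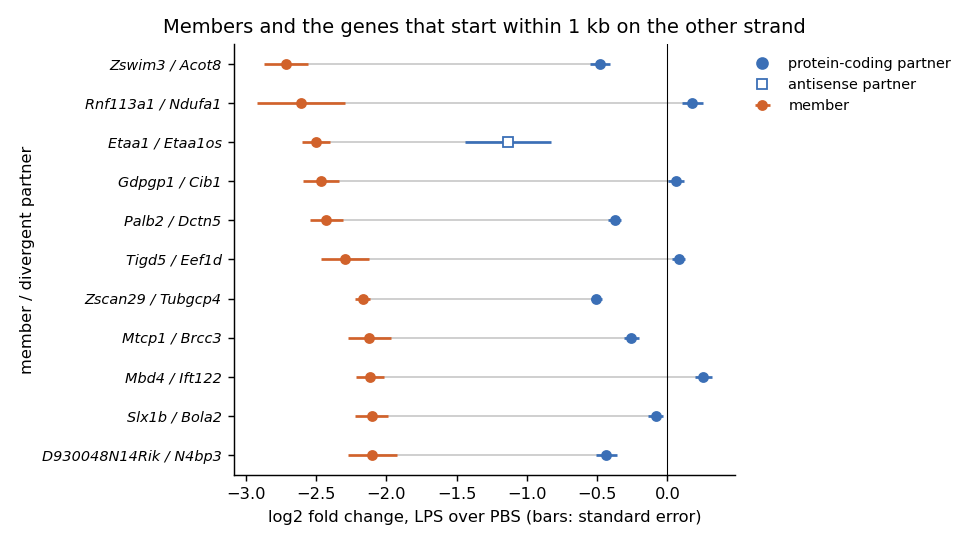
Log2 fold change of LPS over PBS, with standard errors as bars, for 11 members (orange) and the gene that starts within 1000 bp on the other strand (blue, filled for protein-coding and open for the antisense partner). Coding partners lie between -0.51 and 0.26, and the members beside them between -2.72 and -2.10.

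The bases between the 2 starts are shown for 5 of the 8 pairs whose whole interval was in the RefSeq promoter table, to show the DNA between a member and its partner. They are the 4 whose members had the lowest log2 fold changes and the Mbd4 pair, whose partner had the highest, and in the Etaa1 pair the partner fell. They are RefSeq sequence of GRCm38, read 5′ to 3′ on the member's strand from the partner's start to the member's start, with capitals for letters that match 1 of 10 searched motifs on either strand.
Zswim3 and Acot8, chr2:164804883-164805097, plus strand: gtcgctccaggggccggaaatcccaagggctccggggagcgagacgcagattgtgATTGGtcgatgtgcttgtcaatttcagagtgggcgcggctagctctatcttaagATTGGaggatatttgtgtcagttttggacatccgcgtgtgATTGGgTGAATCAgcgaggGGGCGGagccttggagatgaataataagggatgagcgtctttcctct
Rnf113a1 and Ndufa1, chrX:37191164-37191244, plus strand: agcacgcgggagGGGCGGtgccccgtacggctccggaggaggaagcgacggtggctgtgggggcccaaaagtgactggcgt
Gdpgp1 and Cib1, chr7:80232814-80232864, plus strand: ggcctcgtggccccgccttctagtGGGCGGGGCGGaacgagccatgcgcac
Mbd4 and Ift122, chr6:115853372-115853469, minus strand: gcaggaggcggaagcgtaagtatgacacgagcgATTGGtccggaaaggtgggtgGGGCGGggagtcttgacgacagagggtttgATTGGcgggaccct
Etaa1 and Etaa1os, chr11:17953876-17953969, minus strand: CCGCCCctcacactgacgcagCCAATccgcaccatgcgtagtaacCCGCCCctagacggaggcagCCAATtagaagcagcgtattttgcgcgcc

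All 8 pairs whose interval was in the promoter table held the GC box letters GGGCGG, bound by SP and KLF factors, on 1 strand or the other. The letters occur in 16.4% of all promoter windows over the 51 bases before the start, the length of the Gdpgp1 interval, and in 31.6% over 215 bases, the length of the Zswim3 interval. These windows were not limited to divergent pairs or matched for GC content, which ran from 53.5% to 82.9% in the 8 intervals. The shares therefore do not show that the letters are particular to these pairs. CCAAT, the site of NF-Y, was in 3 of the 8 (Zswim3, Etaa1 and Mbd4), against 30.7% of windows at 215 bases and 18.6% at 98 bases. The letters TGANTCA, found in AP-1 sites where N is C or G, were in 1, that of Zswim3 (5.84% of windows at that length). There N was A, so the match is not that AP-1 form. The TATA letters TATAAA, the E-box CACGTG, the letters GGAANTTCC, found in some NF-kB sites, the CRE TGACGTCA, the FOXO letters GTAAACA, the ETS letters CCGGAAG and the NRF1 letters GCGCATGCG were in 0 of the 8. A match is a description of letters and not of a bound site, and these short intervals are only the part of the promoter that both genes share.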

How the data were processed

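Total RNA of 3 PBS and 3 LPS libraries of BMDMs was prepared with a stranded kit and sequenced as paired reads of 101 bp. The authors checked reads with FastQC 0.11.9 and used HISAT2 2.1.0 against GRCm38, SAMtools 1.17 and featureCounts 2.0.0, and the deposited values are raw gene counts. The annotation release, strand setting and treatment of reads with several matches are not given in the sources used here.

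Identifiers were matched without version to GENCODE release M21 (55154 of 55335). The 15687 genes kept by filterByExpr were compared in R 4.3.3 with edgeR 4.0.16 (TMM, quasi-likelihood test, Benjamini-Hochberg adjustment), with the criteria of the study. DESeq2 1.42.0 and voom of limma 3.58.1 were alternatives. The members, gene lists, complexes and role groups were chosen with earlier results of these data known. Named genes were the 25 members with the lowest log2 fold change, the 5 on either side of the fold limit, members on a list, the 10 highest per kilobase of exon, the 10 called neighbours with the largest changes and 3 called genes per list and direction. Some items that this rule would name, 1 member among them, are not reported here, although the counts include them. Further members were named to fill role groups, and some neighbours and complex partners after their values were seen.

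The labels give same-numbered libraries of both groups the same batch, which pairs them. Deviations from group means correlated at -0.0139, 0.0822 and 0.0387 within the pairs. The study's methods name pairwise comparisons and no batch term, the fit here had none, and a fit with it was an alternative. The functions were tested on simulated data. Exon numbers, 3′ UTRs and C2H2 patterns (from translated coding sequence) refer to the GENCODE transcript with the longest coding sequence. RefSeq promoter windows matched 51 of 70 members (72.9%), under the 80% needed, so a motif count over members is void and was left out. No same-strand gene was found inside an intron of a member without exon overlap (0 genes), so that planned comparison has no value. Intervals and the floor of 3 counts cover counting error only.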

Additional observations from a re-analysis of the deposited data

How the results depend on the processing

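Of 306 values recomputed under alternatives, 284 stayed within their limits (1.5 times for counts), 22 moved and 0 reversed. The replicate block, which pairs libraries of the same batch, changed no call count by more than that in 27 of 27 values (1624 falls and 1652 rises over all genes), and the members' median log2 fold change was -2.44 in it. Scaling moved most. With library size alone all tested genes had a median of -0.42, and 2962 fell and 1213 rose against 1624 and 1653. The rule was met by 170 genes, all 70 members among them. The members' median was -2.84, which is -2.42 relative to that shift, as it was with TMM. This match is all but forced, because scaling by library size alone moves every gene by nearly the same amount. Falls were then 36 among nearest genes (18.9% of all tested genes fell), 219 of the 306 C2H2 genes named Zfp or Zbtb, 43 of the 115 with other names, 5 of the G protein-coupled receptors, 12 of the homeobox and bHLH genes, 3 of the KRAB corepressor genes, 5 of the p53 targets, 26 of the small GTPase genes and 66 of the ubiquitin genes. With upper quartile scaling the members' median was -2.58 and that of all genes -0.16. With 10 counts required in every library 1027 genes fell, the members' median was -2.35, 1 divergent partner fell, 1 overlapping gene rose and 2 nearest genes rose, with fewer genes and members tested. Nearest genes within 10 kb numbered 56, of which 9 fell and 2 rose. A ratio limit of 0.333 gave 174 genes and of 0.2 gave 40, and asking for every LPS library to be at most 0.25 of every PBS library left 43. Without 1 library at a time the rule gave 65 to 79 genes, the lowest without LPS replicate 3. Falls over all genes then ranged from 1635 to 1711 and divergent partners that fell from 1 to 2, Etaa1os being lost without LPS replicate 3. The cause was not tested for these shifts.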
